A study of Mus musculus with 6 samples.

Results

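This report compares the regions of open chromatin in mouse embryonic stem cells (ESCs) with those in D-EPSCs, which are expanded potential stem cells (EPSCs) made from the same ESCs under the Deng group's culture conditions. Its members are the 28965 ESC peaks and 50225 D-EPSC peaks on chromosomes 1 to 19 and X, which are 79190 of the 125791 peaks in the 3 lists of the series. A peak was called ESC-only or D-EPSC-only when no peak of the other list overlapped it by at least 1 bp, and shared otherwise. By that rule 5388 ESC peaks were ESC-only and 23577 shared, and 26945 D-EPSC peaks were D-EPSC-only and 23280 shared. Both states came from J1, a single ESC line of strain 129SV, and the EPSCs were kept free of feeder cells before the assay, as the study's methods describe. ESC medium held 15% serum, LIF at 1000 units/ml, the GSK3 inhibitor CHIR99021 at 3 µM and the MEK inhibitor PD0325901 at 1 µM, on feeder cells or gelatin. D-EPSC medium held 5% serum replacement in place of serum, with LIF at 1000 units/ml, CHIR99021 at 3 µM, dimethindene maleate at 2 µM and minocycline hydrochloride at 2 µM, and no PD0325901. The L-EPSCs of the series, used below for comparison, came from the same ESCs under the Liu group's conditions, with 20% serum replacement, LIF, CHIR99021 and PD0325901 at the ESC doses, and the inhibitors A-419259 (SRC family kinases), XAV939 (tankyrase), SB203580 (p38) and JNK inhibitor VIII. Medium, conversion and library batch cannot be told apart in this comparison. Each state had 2 technical replicates, which the authors combined into 1 list, so no value carries a replicate error and no test across replicates was possible. The lists hold coordinates without height or score, the depth behind them is unknown, and a place with no peak is a place that the peak caller did not report, which is not evidence of closed chromatin.

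ATAC-seq uses the Tn5 transposase to insert sequencing adapters into accessible DNA, so that peaks mark promoters, enhancers and insulators free of tightly packed nucleosomes. In mouse ESCs, POU5F1, SOX2 and NANOG hold pluripotency together with factors such as ESRRB, KLF4 and TFCP2L1, which act downstream of LIF and of GSK3 inhibition. MEK inhibition blocks the FGF and ERK signal that drives ESCs out of this naive state. CpG-rich promoters are open in most cell types, while CpG-poor promoters and distal enhancers are open in a more cell-type-specific way. Of 6 marker genes of pluripotent cells, 4 had a promoter peak in the ESC list and 6 in the D-EPSC list. Of 6 trophoblast markers the counts were 2 and 5, and of 6 primitive endoderm markers 1 and 5. Of 10 feeder fibroblast markers, 2 had a promoter peak in the ESC list and 5 in the D-EPSC list. Over all 22342 coding genes, 51.5% had a promoter peak in the ESC list and 63.5% in the D-EPSC list, so D-EPSCs had more promoter peaks over genes in general. Over all genes of the same promoter CpG content as the markers, the shares were 48.4% and 61.4% for the pluripotent markers, 54.4% and 67.9% for trophoblast, 56.8% and 72.7% for primitive endoderm and 39.2% and 51.8% for fibroblast markers. The part of remaining feeder cells in the results was not tested.

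The sequences below are stretches of state-only peaks outside annotated exons, from NCBIM37 (mm9), plus strand, chosen because they carry the named genes and the letters that the results turn on. Capitals mark exact matches on either strand to the letters GGGTGTGG (KLF), CAAGGTCA (ESRRB), ATCAAAGG (TCF/LEF), GGGGGAGGG (ZFP281), GGACAGCGC (REST), and, at Nanog, the POU letters TTTGCAT followed after 1 base by the SOX letters ACAA. The first sequences are 240 bp of promoter peaks, from the ESC list at Tet1 and from the D-EPSC list at Nanog and Otx2. The others are 160 bp of the widest exon-free distal peak of its set with a match to the named letters.
Tet1 promoter, ESC-only, with KLF and ZFP281 letters, chr10:62360992-62361231: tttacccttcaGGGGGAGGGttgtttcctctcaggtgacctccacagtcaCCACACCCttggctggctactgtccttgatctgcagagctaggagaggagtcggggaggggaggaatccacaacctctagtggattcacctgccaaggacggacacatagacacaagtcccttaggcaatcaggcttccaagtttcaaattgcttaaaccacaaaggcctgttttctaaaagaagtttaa
Nanog promoter, D-EPSC-only, with POU and SOX letters, chr6:122657242-122657481: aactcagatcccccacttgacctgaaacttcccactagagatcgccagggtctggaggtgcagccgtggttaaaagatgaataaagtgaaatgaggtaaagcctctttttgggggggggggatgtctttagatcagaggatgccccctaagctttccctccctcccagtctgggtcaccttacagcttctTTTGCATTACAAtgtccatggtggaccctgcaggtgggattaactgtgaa
Otx2 promoter, D-EPSC-only, with no match, chr14:49285669-49285908: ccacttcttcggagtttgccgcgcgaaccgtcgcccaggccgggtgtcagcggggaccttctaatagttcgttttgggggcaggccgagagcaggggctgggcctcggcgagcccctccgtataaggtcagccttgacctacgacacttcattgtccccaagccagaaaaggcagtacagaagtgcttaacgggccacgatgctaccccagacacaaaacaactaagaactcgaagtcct
ESC-only distal peak with TCF/LEF letters, nearest start Gm14221, chr2:160342225-160342384: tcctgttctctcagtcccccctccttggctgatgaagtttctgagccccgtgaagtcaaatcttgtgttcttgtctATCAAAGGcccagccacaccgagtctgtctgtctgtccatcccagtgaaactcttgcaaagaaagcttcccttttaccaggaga
ESC-only distal peak with ESRRB letters, nearest start Mms22l, chr4:23583882-23584041: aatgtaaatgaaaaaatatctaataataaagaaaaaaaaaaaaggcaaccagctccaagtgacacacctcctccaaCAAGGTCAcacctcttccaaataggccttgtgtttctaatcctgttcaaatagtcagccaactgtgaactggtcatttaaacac
ESC-only distal peak with KLF letters, nearest start Rnd3, chr2:50863633-50863792: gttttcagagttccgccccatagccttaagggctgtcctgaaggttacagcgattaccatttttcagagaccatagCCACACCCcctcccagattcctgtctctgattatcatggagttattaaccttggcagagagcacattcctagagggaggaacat
D-EPSC-only distal peak with ZFP281 letters, nearest start Chd4, chr6:125039354-125039513: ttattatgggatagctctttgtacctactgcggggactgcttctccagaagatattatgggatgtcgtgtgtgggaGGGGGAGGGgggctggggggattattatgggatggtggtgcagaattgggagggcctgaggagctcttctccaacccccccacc
D-EPSC-only distal peak with REST letters, Tet1 intron, chr10:62328498-62328657: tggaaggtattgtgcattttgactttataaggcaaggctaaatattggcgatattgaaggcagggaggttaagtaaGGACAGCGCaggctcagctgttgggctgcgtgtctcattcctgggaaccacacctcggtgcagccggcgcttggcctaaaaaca

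Of these, the peak near Rnd3 was 1557 bp wide and 141509 bp from the nearest coding start, the peak near Chd4 was 1700 bp wide and 6576 bp away, and the REST example was 1477 bp wide inside an intron of Tet1. The TCF/LEF example lay 103622 bp from the start of Gm14221, and the ESRRB example 839227 bp from that of Mms22l. The Nanog stretch held its POU and SOX letters at base 191, and that pair of letters was added to the search after the sequence had been seen. It occurred in 0.0403% of 400 bp windows around the starts of the 22342 coding genes and in 0.0274% of 400 bp windows taken every 50 kb along the genome. It occurred in 0.167% of ESC-only peaks, 0.134% of D-EPSC-only and 0.159% of shared peaks.

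To see where the differences between the states lay, each peak was placed by its midpoint. ESC-only peaks lay mostly away from promoters, with 49.7% between genes and 42.5% in introns. D-EPSC-only peaks were at promoters more often. The midpoint was within 1 kb of a coding transcript start in 247 of 5388 ESC-only peaks, or 4.58% (95% Wilson interval 4.06 to 5.18), against 3655 of 26945 D-EPSC-only peaks, or 13.6% (13.2 to 14.0), and 45.5% (44.8 to 46.1) of shared D-EPSC peaks. Exons beyond the promoters held 3.16% of ESC-only, 5.72% of D-EPSC-only and 3.02% of shared peaks. Over 50 kb from every coding start lay 35.2% of ESC-only peaks, 25.2% of D-EPSC-only and 15.5% of shared ones. The intervals cover counting error only. The order of the ESC-only and D-EPSC-only promoter shares turned under a reciprocal overlap of 50%, which gave 26.0% and 19.3%, a rule by which a narrow ESC peak inside a D-EPSC peak more than 2 times as wide counts as ESC-only.

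State-only peaks were narrow, and few lay beside a peak of the other list. The median width was 248 bp in ESC-only and 256 bp in D-EPSC-only peaks, against 406 bp and 551 bp in the shared peaks of the ESC and D-EPSC lists. At promoters, D-EPSC-only peaks had a median of 409 bp and ESC-only peaks 269 bp. Each list had 2 widths far commoner than any other, which were 168 and 128 bp in ESCs and 119 and 117 bp in D-EPSCs. The lowest width of any peak was 128 bp in the ESC list and 117 bp in the D-EPSC list. The 2 common widths together took 23.9% of ESC-only peaks against 6.54% of shared ESC peaks, and 9.19% of D-EPSC-only peaks against 1.14% of shared D-EPSC peaks. A peak of the other list lay within 1 kb of 9.15% of ESC-only and 4.70% of D-EPSC-only peaks, and within 10 kb of 46.6% and 36.3%.

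The L-EPSC list was not used to define the sets. It had a peak at 93.0% of shared ESC peaks and 93.4% of shared D-EPSC peaks. Among peaks within 1 kb of a start, it overlapped 65.4% of D-EPSC-only and 41.3% of ESC-only peaks. Among distal peaks the shares were closer, at 42.6% and 37.6%.

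**Figure D1:**
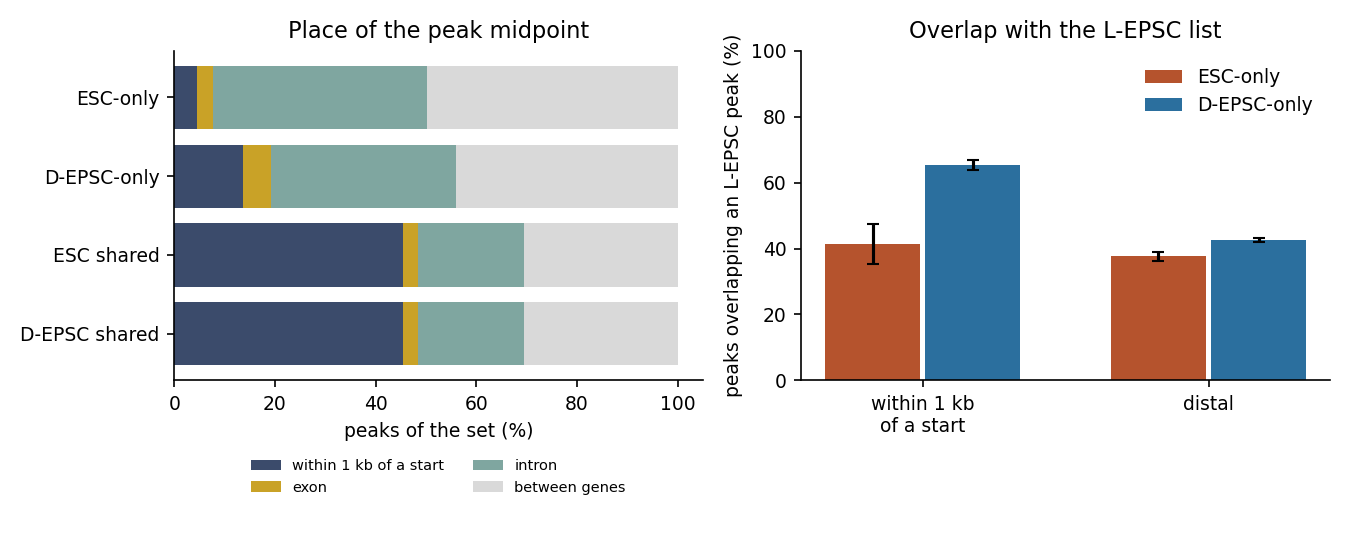
Left, the share of each peak set (percent, horizontal axis) whose midpoint lay within 1 kb of a coding start, in an exon, in an intron or between genes. Right, the share of ESC-only and D-EPSC-only peaks overlapping an L-EPSC peak (percent, vertical axis, bars are 95% Wilson intervals), near starts and at distal sites. D-EPSC-only peaks were at starts more often (13.6% against 4.58%), and those at starts were found in L-EPSCs most often (65.4%).

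At the level of genes, more promoters had a peak in D-EPSCs alone than in ESCs alone, and list length bears on how many more. A coding gene was given a promoter peak when a peak overlapped 1 kb on either side of any of its coding starts. Of 22342 coding genes, 11388 (51.0%) had a promoter peak in both lists, 2792 (12.5%) in the D-EPSC list only, 127 (0.568%) in the ESC list only and 8035 (36.0%) in neither. The D-EPSC list was the longer by 21260 peaks, and with only its widest peaks kept, as many as in the ESC list, the counts were 2061 D-EPSC-only and 455 ESC-only genes. Of the D-EPSC-only genes 2047 (73.3%, 71.6 to 74.9) also had an L-EPSC promoter peak, as did 61 (48.0%, 39.5 to 56.7) of the ESC-only genes. The widest promoter peak had a median of 490 bp in D-EPSC-only genes and 323 bp in ESC-only genes. Under all of 5 other settings, of window, width, list length and transcript starts, 1702 (61.0%) of the D-EPSC-only genes and 42 (33.1%) of the ESC-only genes kept their class. With lists of equal length only D-EPSC peaks were dropped, so all 127 ESC-only genes kept their class by construction. A D-EPSC-only gene with a promoter peak over 309 bp also kept its class there by construction. With peaks under 300 bp left out, a promoter peak of 300 bp or more fixed either class.

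The classes differed in promoter sequence. CpG observed/expected, the count of CpG dinucleotides relative to that given by the C and G content of 500 bp on each side of the start, had a median of 0.740 in genes with a peak in both lists. The median was 0.593 in D-EPSC-only genes, 0.331 in ESC-only genes and 0.184 in genes with neither. Of the 10827 genes without an ESC promoter peak, 25.8% had a D-EPSC one, and this share went from 4.51% for promoters below 0.2 to 16.3%, 51.0%, 81.5% and 88.1% in the bins up to 0.8 and over. Of the 8162 genes without a D-EPSC promoter peak, 1.56% had an ESC one. Taken of all genes, the D-EPSC-only share was 4.26%, 13.2%, 21.7%, 15.2% and 11.0% in the same bins, highest in the middle one, since most CpG-rich promoters had a peak in both lists. For most gene lists below, the share of members without an ESC promoter peak that had a D-EPSC one is given beside a CpG background. That background is the mean, over those members, of the share just given for all genes of the member's bin.

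**Figure D2:**
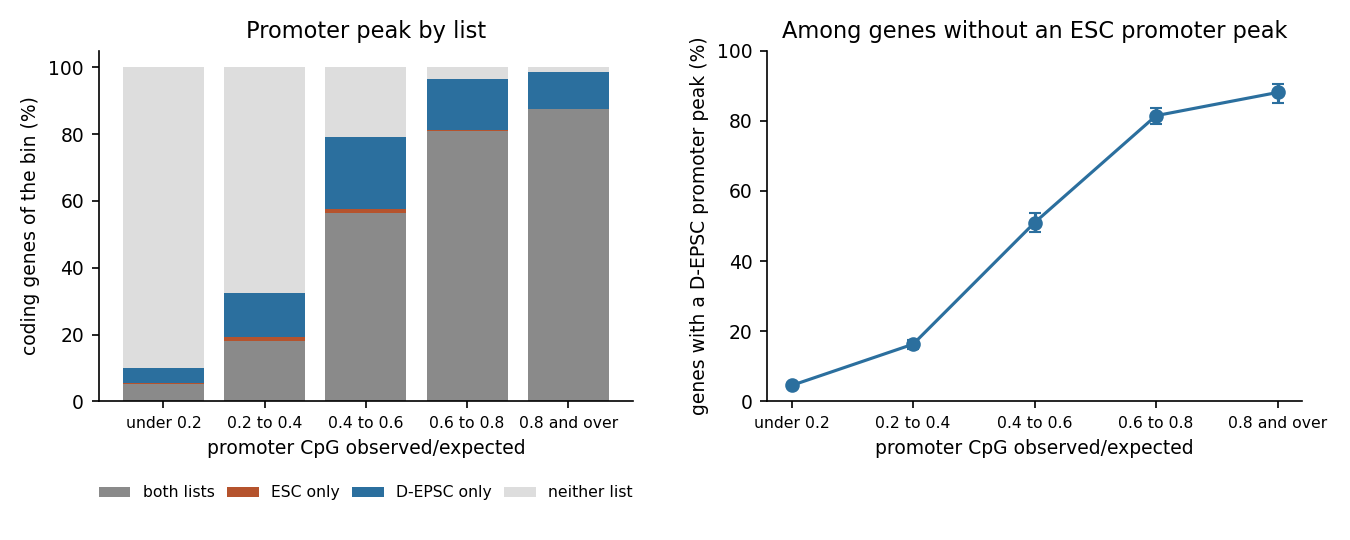
Left, the share of coding genes (percent, vertical axis) with a promoter peak in both lists, in 1 list or in neither, by promoter CpG observed/expected (horizontal axis). Right, among genes without an ESC promoter peak, the share with a D-EPSC promoter peak (percent, bars are 95% Wilson intervals). The share went from 4.51% in the bin below 0.2 to 88.1% in the bin from 0.8.

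Pluripotency genes had promoter peaks in both lists for the most part. Of 20 general pluripotency genes, 14 had a peak in both, 5 in D-EPSCs only, 0 in ESCs only and 1, Dppa4, in neither, and of 15 naive genes the counts were 10, 3, 0 and 2. A peak in both lists was thus at 70% of general and 66.7% of naive genes, beside 53.7% and 56.4% of all genes of the same CpG bins. Of the members without an ESC peak, a D-EPSC one was at 5 of 6 general genes (83.3%, CpG background 38.0%) and 3 of 5 naive genes (60%, background 30.2%). Pou5f1 and Sox2, the central POU and SOX factors, were in both lists. At Sox2 the ESC peak was 430 bp and the D-EPSC peak 1736 bp wide. Nanog, a homeobox factor that stabilises the naive state, had a D-EPSC promoter peak of 435 bp at chr6:122657219-122657653, shown above, and L-EPSCs had it too. The closest ESC peak was 3970 bp away. Nr0b1, an orphan nuclear receptor, had a D-EPSC peak of 970 bp, 414605 bp from the nearest ESC peak. Both were D-EPSC only under all 5 other settings, though those of list length and width could not change the class at these widths.

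Other members depended on the window. Esrrb, an orphan nuclear receptor of the naive network, had a D-EPSC peak of 1217 bp at a coding start and an ESC peak of 488 bp that overlapped it, just outside the window, and it was in both lists with the starts of all transcripts. Tdgf1, a Nodal co-receptor, and Mycn, a growth regulator, each had a wide D-EPSC peak, of 1705 and 1970 bp, that overlapped an ESC peak beyond the window. Gdf3, a TGF-beta ligand, rested on a peak of 122 bp. Dppa2, a chromatin factor of early embryos, had a D-EPSC peak of 542 bp with an ESC peak 834 bp from it. With a window of 2.5 kb the D-EPSC-only count of the general list went from 5 to 2, and with peaks under 300 bp left out that of the naive list went from 3 to 5.

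Genes of the formative and primed states, which precede differentiation, included 6 D-EPSC-only members. Of 18 genes, 12 had a promoter peak in both lists and 6 in D-EPSCs only, and none was in ESCs only or in neither. The 6 were Otx2, Pou3f1, Lef1, Foxd3, Sox3 and Tead2, and all 6 kept this class under the 5 other settings. Those of list length and width turn only on the width of a gene's own D-EPSC peaks. Otx2, a homeobox factor of the exit from the naive state, had a peak of 850 bp at chr14:49285365-49286214, 7935 bp from the nearest ESC peak. Pou3f1, a POU factor of primed cells and neural precursors, had one of 748 bp with no ESC peak within 35580 bp. Sox3 had one of 1108 bp that L-EPSCs did not have. The peak of 1581 bp at Foxd3 overlapped an L-EPSC peak that lay outside the promoter window. The 6 were all members without an ESC peak (100%), beside a CpG background of 74.6%.

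The media differ in MEK inhibition, and the genes of the FGF and ERK pathway are therefore given by role. Of 34 genes, 26 had a promoter peak in both lists, 6 in D-EPSCs only, 1 in ESCs only and 1 in neither. A D-EPSC peak was at 6 of the 7 members without an ESC one (85.7%, CpG background 75.01%). The kinase genes Map2k1, Map2k2 and Mapk3 were in both lists. Of the feedback inhibitors that ERK activity switches on, Dusp1, Dusp4, Dusp5, Dusp6, Spry2, Spry4 and Spred2 were in both, while Dusp2, Spry1 and Spred1 were D-EPSC only, Spred1 through a peak of 2047 bp that overlapped an ESC peak outside the window. Dusp2, an ERK phosphatase, had a peak of 738 bp with the nearest ESC peak 25852 bp away. Spry1, an inhibitor of receptor tyrosine kinase signalling, had 2 peaks, of 301 and 464 bp, with no ESC peak within 16169 bp. The receptor gene Fgfr3 had a D-EPSC peak of 857 bp, and the ligand gene Fgf8 one of only 136 bp. The ligand gene Fgf3 was the ESC-only member, through a peak of 216 bp that was 7225 bp from the nearest D-EPSC peak and was also found in L-EPSCs. The transcription factor genes Etv4, Etv5, Egr1 and Fos were in both lists. With peaks under 300 bp left out, 12 in place of 6 members were D-EPSC only.

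Both media held the GSK3 inhibitor, which activates the Wnt pathway. Of 36 Wnt pathway and target genes, 21 had a promoter peak in both lists, 13 in D-EPSCs only, 1 in ESCs only and 1 in neither. The D-EPSC-only genes included the transcription factor genes Lef1 and Tcf7, the latter with a peak of 999 bp, the target genes Cdx1, Cdx2 and Ccnd1, the ligand genes Wnt3, Wnt3a, Wnt5a, Wnt6 and Wnt9a, the secreted inhibitor genes Notum and Sfrp2, and the co-receptor gene Lrp5. Lef1 had 2 D-EPSC promoter peaks, of 330 and 286 bp. The peaks at Wnt3, Wnt3a, Wnt5a and Wnt6 were all under 300 bp. Sp5, a direct Wnt target, was the ESC-only member, through a peak of 168 bp that had a D-EPSC peak 659 bp from it, and it kept this class under 3 of the 5 other settings. A D-EPSC peak was at 13 of the 14 members without an ESC one (92.9%, CpG background 82.9%). Of 16 genes of the LIF and STAT3 pathway, 13 were in both lists, and Junb, with a peak of 238 bp, was the only one in D-EPSCs only (33.3% of 3 without an ESC peak, CpG background 59.7%). Hrh1, the histamine H1 receptor gene and a target of dimethindene, had a D-EPSC peak of 405 bp and no ESC promoter peak, and the other 6 genes on the list of medium targets had both or neither, so that 50% of the 2 without an ESC peak had a D-EPSC one, under the CpG background of 66.2%.

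Retinoid pathway genes had more D-EPSC-only than shared promoters. Of 18 genes, 9 had a promoter peak in D-EPSCs only, 7 in both lists, 2 in neither and 0 in ESCs only. The nuclear receptor genes Rara, Rxra and Rxrg were among the 9. Rara had 4 D-EPSC promoter peaks, the widest of 1081 bp at chr11:98820800-98821880, 4330 bp from the nearest ESC peak. Rxrg had peaks of 406 and 223 bp with no ESC peak within 99904 bp. The retinoic acid degrading enzyme gene Cyp26a1 had a peak of 572 bp, and the others were the binding protein genes Crabp2 and Rbp4, the retinol transporter gene Stra6, the retinoid-induced Stra8 and the reductase gene Dhrs3. Rxra, Cyp26a1, Crabp2 and Rbp4 had no L-EPSC promoter peak. Of the 11 members without an ESC peak, 81.8% had a D-EPSC one, beside a CpG background of 42.0%. The 9 stayed between 8 and 10 under the other settings.

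Regulators of the lineages that leave the pluripotent state were read in 4 lists. Of 18 primitive endoderm genes, 9 were D-EPSC only, 4 in both and 5 in neither, which is 64.3% of the 14 without an ESC peak beside a CpG background of 51.1%. The transcription factor genes Gata4, Gata6 and Sox7 had peaks of 1014, 581 and 451 bp, which L-EPSCs shared, with 4300, 166170 and 82487 bp to the closest ESC peak. Foxa2 had peaks of 401 and 528 bp that L-EPSCs did not have, and the basement membrane genes Col4a1 and Col4a2 share a promoter and its peak of 870 bp. Of 20 trophoblast genes, 8 were D-EPSC only (72.7% of 11, CpG background 50.1%), among them Cdx2 with a peak of 667 bp and Tcfap2a with 968 bp. Ascl2 had a state-only peak of 235 bp, and its peak of 847 bp overlapped an ESC peak of 269 bp outside the window. Elf5 and Gcm1 rested on peaks of 185 and 125 bp. That count went from 8 to 4 with a window of 2.5 kb and with lists of equal length.

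Of 22 mesendoderm and gastrulation genes, 11 were D-EPSC only, 4 in both and 7 in neither, which is 61.1% of 18 beside a CpG background of 50.3%. Gsc, a homeobox factor of the organiser, had a peak of 416 bp, and Mesp2, a factor of early mesoderm, one of 502 bp. Nodal, the ligand that patterns the early embryo, had one of 449 bp. Lhx1, Wnt3, Bmp4, Fgf8 and Tbx6 rested on peaks under 300 bp, and the count was 6 with lists of equal length. Of 22 neural genes, 10 were D-EPSC only (83.3% of 12, CpG background 79.5%) and 10 in both, the former including Zic1, a zinc finger factor of neural precursors, with a peak of 1776 bp, Hes5 with 1062 bp and Nes with 365 bp. No gene of these 4 lists was ESC only, a class that held only 0.568% of all coding genes. Of 39 Hox genes, which set position along the body axis, 15 were D-EPSC only, 9 in both and 15 in neither, which is 50% of 30, under the CpG background of 63.7%. The Hox count was 23 with a window of 2.5 kb and 8 with lists of equal length.

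**Figure D3:**
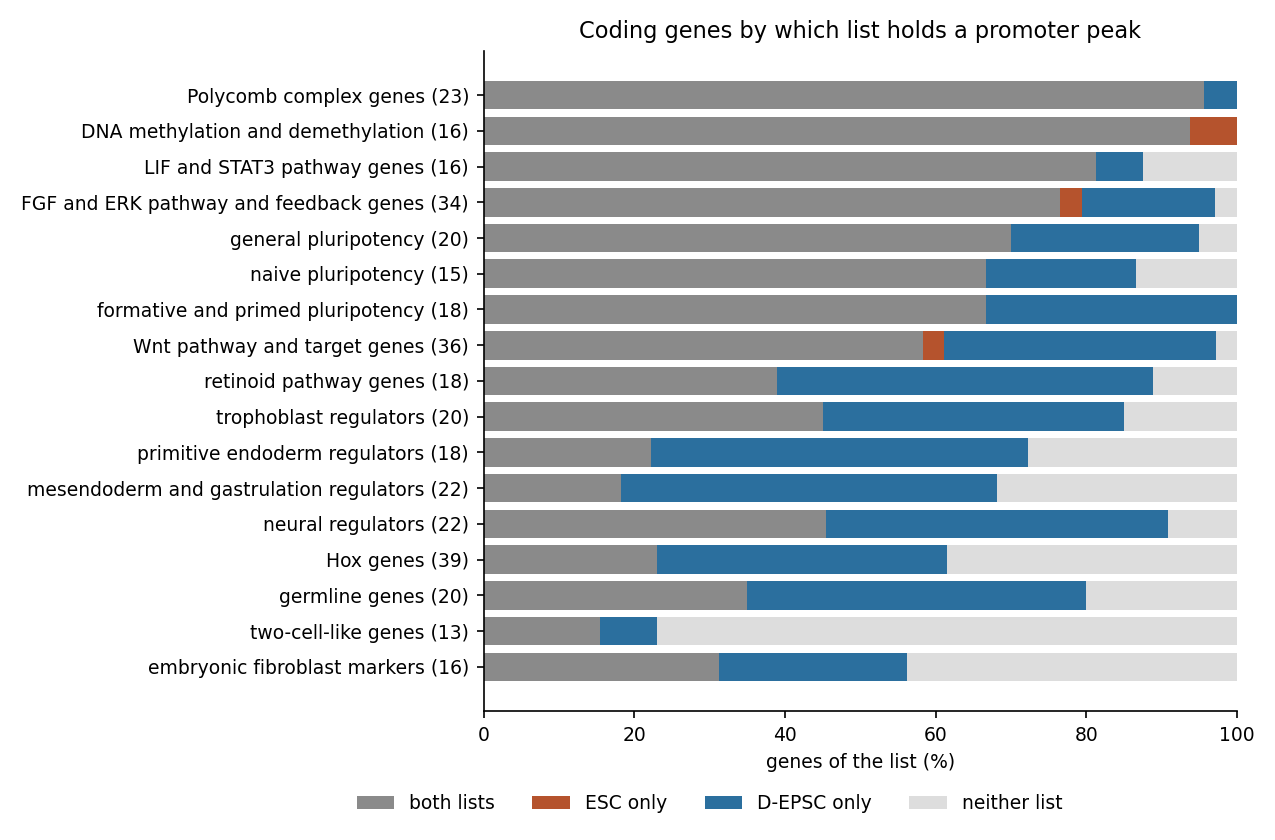
Share of the genes of each list (percent, horizontal axis) with a promoter peak in both lists, in ESCs only, in D-EPSCs only or in neither. Numbers in brackets are genes found in the annotation. Polycomb and DNA methylation genes were nearly all in both lists, while 9 of 18 retinoid and 9 of 18 primitive endoderm genes were D-EPSC only. Mesendoderm (11 of 22), neural (10 of 22) and germline genes (9 of 20) were D-EPSC only at similar shares. Of members without an ESC peak, a D-EPSC one was at 81.8% of retinoid genes (CpG background 42.0%) and 64.3% of primitive endoderm genes (51.1%).

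Most of the chromatin regulator genes listed had a peak in both lists. Of 23 Polycomb genes, 22 had a promoter peak in both, which is 95.7% beside 77.0% of all genes of the same CpG bins, and Pcgf2, a subunit of Polycomb repressive complex 1, was D-EPSC only with 492 bp (100% of 1 without an ESC peak, CpG background 88.1%). With peaks under 300 bp left out, 4 Polycomb genes were D-EPSC only. Of 16 genes of DNA methylation and demethylation, 15 were in both lists, which is 93.8% beside 66.6%. Of all genes with a CpG observed/expected of 0.6 to 0.8 and of 0.8 and over, 81.0% and 87.5% were in both lists. The remaining gene was Tet1, the dioxygenase that oxidises 5-methylcytosine, and it was ESC only. Its ESC peak of 343 bp at chr10:62360941-62361283, shown above, had its midpoint 754 bp from a coding start, in no L-EPSC peak, with the nearest D-EPSC peak 4633 bp away. Tet1 was no longer ESC only with a window of 500 bp or with the starts of all transcripts.

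Of 20 germline genes, 9 were D-EPSC only, 7 in both and 4 in neither, which is 69.2% of 13, near the CpG background of 67.1%. They included the meiosis genes Sycp1, Sycp3 and Hormad1, with peaks of 641, 1233 and 797 bp, and the piRNA pathway genes Mael, Tdrd1, Piwil2 and Rnf17. Mael, Hormad1, Tdrd1 and Taf7l had no L-EPSC promoter peak. The count was 8 or 9 under every other setting. Of 13 genes of the 2-cell-like state found in the annotation, 10 had no promoter peak in either list, 2 had both, and Sp110 was D-EPSC only through 119 bp (9.09% of 11, CpG background 7.72%). Of 16 fibroblast markers, Col1a1, Col1a2, Twist1 and Pdgfrb were D-EPSC only (36.4% of 11, CpG background 23.8%), 5 were in both and 7 in neither. The peak at Twist1 was 1172 bp wide. The part of feeder fibroblasts in these peaks was not tested.

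Gene families chosen by name or function, and not for a role in pluripotency, were read in the same way. Of 81 genes whose symbols begin like those of ribosomal proteins, 66 had a promoter peak in both lists, 14 in D-EPSCs only (93.3% of 15, CpG background 74.0%) and 1 in neither. Most are the ribosomal protein genes that every cell uses, but the symbols also took in the kinase-like gene Rps6kl1, in both lists, and the paralogues Rpl3l, in neither, and Rpl10l and Rpl39l, both D-EPSC only. Of 340 zinc finger genes with the prefix Zfp, which include the pluripotency genes Zfp281, Zfp42 and Zfp462, 247 were in both lists, 33 in D-EPSCs only (35.5% of 93, CpG background 30.6%) and 0 in ESCs only. Of 327 solute carrier genes, 176 were in both, 60 in D-EPSCs only (40.5% of 148, CpG background 29.9%) and 3 in ESCs only. Olfactory receptor genes, which are silent outside the nose and have CpG-poor promoters, had no promoter peak in either list at 1076 of 1087, with 6 in D-EPSCs only and 3 in ESCs only. Vomeronasal receptor genes had none at 317 of 319, keratin genes at 42 of 46 and clustered protocadherin genes at 20 of 24. Of the members without an ESC peak in these 4 families, a D-EPSC one was at 0.555%, 0.314%, 0% and 9.09%, under CpG backgrounds of 7.01%, 5.37%, 22.9% and 36.1%. Of 73 mitochondrial ribosome genes, 63 were in both lists and 9 in D-EPSCs only (90% of 10, CpG background 83.5%). With peaks under 300 bp left out, the D-EPSC-only counts were 33 for the ribosomal protein symbols, 65 for Zfp genes and 19 for mitochondrial ribosome genes, and with lists of equal length the first was 9. Of 13 neuronal genes with known REST elements, 11 were in both lists and Chrm4, a muscarinic receptor gene, was D-EPSC only with a peak of 777 bp (50% of 2, CpG background 48.9%), and 3 of these genes were D-EPSC only with peaks under 300 bp left out or with a window of 500 bp.

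The 127 genes with a promoter peak in ESCs only are 0.568% of coding genes, too few for most of the lists to show a group. The following were chosen after their values were seen. They included Hesx1, a homeobox repressor of early forebrain, with a peak of 329 bp, and the homeobox gene Tlx2 with 625 bp. Both kept the class under all 5 other settings, though those of list length and width could not change it at these widths. Neither had an L-EPSC promoter peak. The 10 widest ESC-only peaks within 1 kb of a start, by the naming rule, lay at Lmo3, Nipsnap3a, Poli, Klhl1, Gm6728, Ky, Tlx2, Slc37a1, Tiam1 and Frmpd1 and spanned 619 to 897 bp. The widest was at Lmo3, which encodes a LIM-domain cofactor, at chr6:138370931-138371827, 59 bp from the start by its midpoint and 281760 bp from the nearest D-EPSC peak. L-EPSCs had a peak at 7 of the 10.

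The 10 widest D-EPSC-only peaks near starts were far wider, from 1831 to 2544 bp, and L-EPSCs had a peak at all 10. They lay at Slc35d3, Bend3, Gm5069, Plxnc1, Shisa6, Card10, AW555464, Zbtb46, Nr3c1 and Zfp236. The peak at Slc35d3, of the nucleotide sugar transporter family, spanned chr10:19569373-19571916 and lay 55153 bp from the nearest ESC peak. Nr3c1, the glucocorticoid receptor, had a peak of 1858 bp with no ESC peak within 303102 bp, and Shisa6, an auxiliary subunit of AMPA receptors, had one of 2018 bp with none within 356888 bp. Bend3, a transcriptional repressor, had a peak of 2474 bp.

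Distal state-only peaks were spread thinly over many loci. Each distal peak was assigned to the gene of the nearest coding start, which does not show that it regulates that gene. The most D-EPSC-only distal peaks were at Camta1, with 27, then Pard3 and Zfhx3 with 26 each, Gm15319 with 23, Auts2, Jarid2 and Med13l with 22, Vrk1 with 21, and Bcor and Zfp608 with 20. Jarid2, a subunit of Polycomb repressive complex 2, had 4 distal ESC-only and 7 shared ESC peaks beside its 22. Bcor, a subunit of a variant Polycomb complex, had 1 ESC-only peak beside its 20, and its promoter peak was D-EPSC only. Camta1 and Auts2 are long genes, with 15 and 14 D-EPSC-only peaks within 50 kb of a start. Sox2 and Zfp281, pluripotency genes chosen after their values were seen, had 17 each, with 1 and 0 ESC-only distal peaks.

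The highest counts of ESC-only distal peaks at 1 gene were lower than those of D-EPSC-only ones. Adcyap1, Cdh13, Csmd1 and Lrig3 had 9 each, Cdh20 had 8, 4930555F03Rik and Wdfy3 had 7, and Arid1b, Diap3 and Mms22l had 6. Lrig3, a membrane regulator of growth factor receptors, had 2 D-EPSC-only distal peaks beside its 9, and Adcyap1, a neuropeptide gene with no promoter peak in either list, had 3. ESC-only peaks were the more numerous at these genes and at Cdh20, 4930555F03Rik, Diap3 and Mms22l. At Cdh13 and Csmd1, which are long genes, D-EPSC-only peaks were the more numerous, at 13 and 12. The same held at Arid1b and Wdfy3, with 15 and 9. Within 50 kb of a start, D-EPSC-only peaks were the more numerous at Adcyap1 (2 against 1), 4930555F03Rik (1 against 0) and Diap3 (3 against 2). There Lrig3, Cdh20 and Mms22l had 2, 1 and 2 ESC-only peaks and 0 D-EPSC-only ones. Of 283 genes with 3 or more ESC-only distal peaks, 133 had more D-EPSC-only than ESC-only ones and 33 had no D-EPSC-only one. The median ESC-only distal peak lay 29912 bp from a start, and with peaks within 50 kb of a start counted, 6 in place of 28 genes had 5 or more ESC-only peaks.

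Over all genes, 5141 of 28431 distal state-only peaks were ESC-only, which is 18.1% (17.6 to 18.5). At naive pluripotency genes the share was 28.0% (19.5 to 38.6), from 23 ESC-only and 59 D-EPSC-only peaks. Esrrb had 4 ESC-only and 3 D-EPSC-only distal peaks, Klf5 had 4 and 4, and Tcfcp2l1, the gene of TFCP2L1, had 2 and 3, while Klf4 had 0 and 7 and Prdm14 had 0 and 8. At FGF and ERK pathway genes the share was 10.2% (5.91 to 16.9), from 12 and 106 peaks. Dusp4 had 11 D-EPSC-only distal peaks, Etv5 8, Dusp6 6 and Spry4 6, and none of these 4 had an ESC-only one. Spred2 had 4 ESC-only and 15 D-EPSC-only peaks. At formative and primed genes the share was 9.59% (4.72 to 18.5) and at Hox genes 6.82% (2.35 to 18.2). With peaks counted within 50 kb of a start, the share was 15.1% over all genes, 26.7% at naive genes, 11.1% at FGF and ERK genes and 11.5% at formative genes. In other lists the share was 53.8% (29.1 to 76.8) at 2-cell-like genes, 33.3% at medium targets, 29.2% at keratin genes and 28.6% at clustered protocadherin genes, and it was 12.01% at Zfp genes and 12.8% at ribosomal protein symbols. Within 50 kb of a start these shares were 41.7%, 18.75%, 27.6%, 52.7%, 13.7% and 12.03% in the same order. The medium targets include Map2k1 and Map2k2 of the FGF list, and the intervals at medium targets (12.1 to 64.6), keratin genes (14.9 to 49.2) and protocadherin genes (15.3 to 47.1) hold the share of all genes. Peaks near a gene are not independent of each other, and no share is read as particular to its list.

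The widest distal D-EPSC-only peaks were 2866 bp near Gm13051, 1848 bp in an exon of BC068157, 1784 bp in an exon at Arid5b, 1780 bp in an intron at Hoxc11 and 1770 bp at 3930402G23Rik. Wide distal ESC-only peaks were 1557 bp near Rnd3, 1350 bp in an exon at Ly75, 1348 bp near 3930402G23Rik and 1310 bp near Tprg. L-EPSCs had a peak at those near Rnd3 and Ly75 and none at those near 3930402G23Rik and Tprg.

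Where both states had a peak, the D-EPSC peak was usually the wider. This held in 70.5% (69.9 to 71.1) of 22754 regions in which a single ESC peak overlapped a single D-EPSC peak. The difference was greater at promoters than elsewhere. In 10274 proximal regions the median width was 524.5 bp in ESCs and 757 bp in D-EPSCs, the median ratio was 1.35, and the D-EPSC peak was wider in 81.5% (80.7 to 82.2). In 12480 distal regions the medians were 331 and 387 bp, the median ratio was 1.15, and the D-EPSC peak was wider in 61.4% (60.6 to 62.3). The D-EPSC peak was 2 or more times as wide in 2225 proximal regions and the ESC peak in 114, and the counts were 1999 and 939 in distal regions. Widths depend on the depth and on the peak caller, and a height was not analysed here.

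The largest ratio was at Basp1, a membrane protein of growing neurites, where the ESC peak was 168 bp and the D-EPSC peak 2461 bp wide. N4bp2, Gprc5b, Rbpms2 and Kcnk13 followed, with D-EPSC peaks of 1726 to 1935 bp and ESC peaks of 128 or 168 bp, all within 1 kb of a start. The ESC peak was the wider by most near Qk, an RNA-binding splicing regulator, at 1296 bp against 139 bp, and 45980 bp from the start. Foxn2, Yeats4, Acsl6 and Jam2 followed, with ESC peaks of 888 to 1138 bp and D-EPSC peaks of 119 to 156 bp at distal sites. In both directions the narrower peak was at or near the lowest width of its list, 128 bp in ESCs and 117 bp in D-EPSCs.

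**Figure D4:**
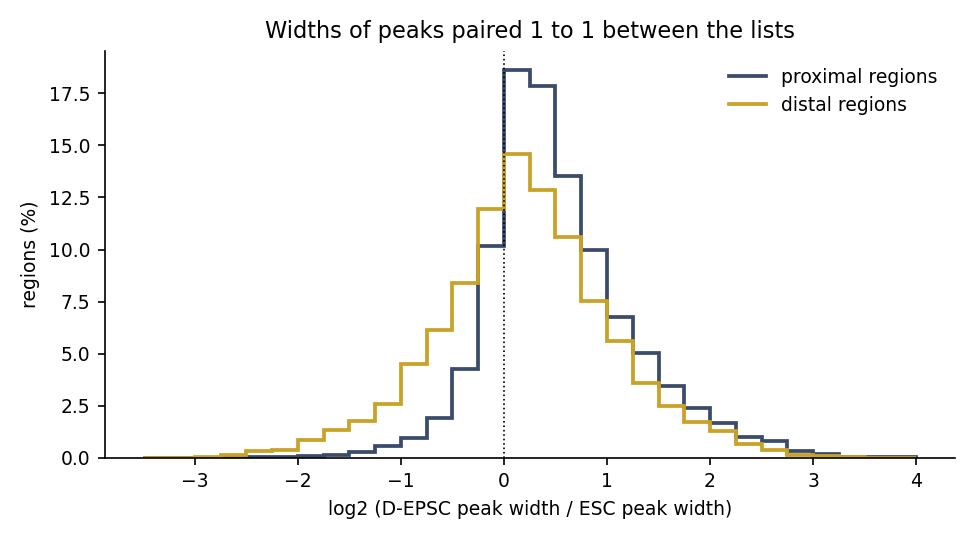
Distribution of the log2 ratio of D-EPSC to ESC peak width (horizontal axis) over regions with a single peak in each list, as percent of regions (vertical axis), for 10274 proximal and 12480 distal regions. Most of both distributions lies right of 0, with 81.5% of proximal and 61.4% of distal regions wider in D-EPSCs.

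Short sequence matches were then counted in 400 bp around the midpoint of each peak, on both strands and without mismatch. ESC-only peaks held the letters of ESRRB (CAAGGTCA) in 6.05%, D-EPSC-only peaks in 3.49%, shared peaks in 3.34% and genome windows in 2.41%. For KLF (GGGTGTGG) the shares were 8.22%, 5.997%, 5.65% and 2.39% in the same order. For TCF/LEF (ATCAAAGG), read by the factors through which GSK3 inhibition acts, they were 2.47%, 1.42%, 1.16% and 1.98%, and for TEAD (ACATTCC) 7.81%, 5.66%, 5.04% and 5.32%. D-EPSC-only peaks were the higher for ZFP281 (GGGGGAGGG), at 7.37% against 3.95%, with 7.18% of shared peaks and 2.35% of genome windows. They were also higher for REST (GGACAGCGC), the repressor of neuronal genes, at 0.564% against 0.111%, and for the insulator factor CTCF (AGGGGGCGC), at 1.81% against 0.965%, with 0.0548% and 0.0782% of genome windows. Shared peaks held the REST and CTCF letters more often still, in 0.872% and 2.72%. RONIN/GFY (ACTACAATT) went the other way, at 0.0928% of D-EPSC-only against 0.204% of ESC-only peaks, with 0.344% of shared peaks and 0.252% of genome windows. AP-1 (TGANTCA) was at 11.95% and 12.04%, with 11.6% of genome windows, and the POU octamer (ATGCAAAT) at 3.21% and 2.92%, under the 3.66% of genome windows.

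Base composition moved with these shares. The median G+C content of the 400 bp was 48.8% in ESC-only, 52.5% in D-EPSC-only and 57.2% in shared peaks, and 41.5% in genome windows, and GCGGCG, letters chosen as a G+C control, were in 3.10%, 11.2%, 33.2% and 0.837%. Distal peaks were therefore compared within 4 bands of G+C from 40% to 60%. ESC-only distal peaks were the higher in 4 of 4 bands for ESRRB and for KLF, with intervals apart in 2 each. In the band of 45% to 50% the ESRRB letters were in 7.45% (6.34 to 8.73) of ESC-only and 4.34% (3.86 to 4.87) of D-EPSC-only distal peaks, and the KLF letters in 8.14% (6.99 to 9.47) and 5.15% (4.62 to 5.73). Shared distal peaks of that band held the ESRRB letters in 7.37%. For TCF/LEF the ESC-only share was higher in 3 of 4 bands, with intervals apart in 1, at 3.00% (2.32 to 3.87) against 1.68% (1.39 to 2.04) in the band of 45% to 50%, and for TEAD in 3 of 4, apart in 2. For ZFP281 and AP-1 it was lower in 4 of 4 bands, with intervals apart in 1 each. At ZFP281 the band of 50% to 55% had 5.21% against 7.06%. For REST, CTCF and the POU octamer no band had intervals apart. The ESC-only share of the POU octamer was higher in 1 of 4 bands. SOX, NFY, CTCF, NRF1 and GCGGCG letters were also lower in ESC-only peaks in 4 of 4 bands, with intervals apart in none. ZIC, OTX and FOX letters had intervals apart in 1 band each, with the ESC-only share the lower. The other letters had intervals apart in no band. The 21 sets of letters are simple forms of longer patterns, and a match does not show that a factor was bound. The study had already reported TCF/LEF, ZFP281, REST and RONIN/GFY motifs from these same data, so their letters are no separate support.

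**Figure D5:**
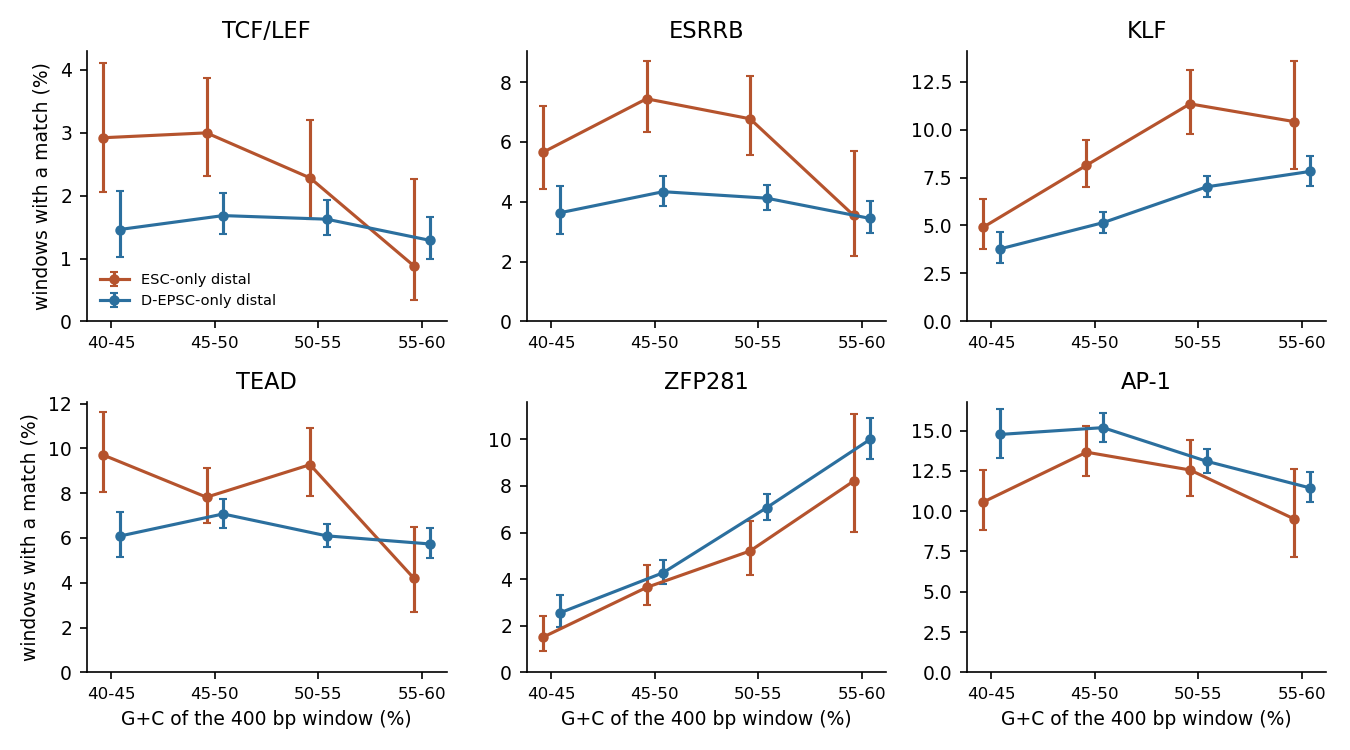
Share of 400 bp windows around distal peak midpoints with an exact match (percent, vertical axis, from 0) by G+C content of the window (percent, horizontal axis), for ESC-only and D-EPSC-only peaks. Bars are 95% Wilson intervals. ESRRB and KLF letters were the commoner in ESC-only peaks in 4 of 4 bands, and ZFP281 and AP-1 letters in D-EPSC-only peaks in 4 of 4.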

How the data were processed

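ATAC-seq libraries of ESCs and D-EPSCs were made in 2 technical replicates per state. Per the labels, the submitters' notes name FastQC 0.10.1, Trim Galore 0.6.3, Bowtie2 2.3.5 and SAMtools 1.10. The authors aligned paired reads to mm9, kept properly paired reads above a mapping quality and called peaks with MACS at default settings. How replicates were combined, and any duplicate removal, Tn5 shift or blacklist, is not given in the sources used here. Kept duplicates or greater depth would let more weak peaks pass the caller, and an unshifted cut site would move edges by a few bases. The deposited values are peak starts and ends (4 columns with chromosome and name), with no score, so depth is unknown and the widest peaks stood in for the strongest.

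Peaks on 19 autosomes and X were used. Genes were coding transcripts of GENCODE M1 on NCBIM37 (mm9), with 45993 coding starts, and a repeated symbol was read at its lowest identifier. Peaks were intersected by 1 bp, and nearest starts, promoter windows of 1 kb, CpG content of 500 bp each side, widths and 21 sets of motif letters in 400 bp were computed. Genome windows were taken every 50 kb. The CpG background of a list, chosen after the data were seen, was averaged over its members without an ESC promoter peak. Shares carry 95% Wilson intervals, which cover counting error only. No test was made, since each state had 1 list. The members and the 27 gene lists were chosen with earlier results of these data known, by textbook role and not by how members moved. Named were list members in 1 list only, up to 8 a direction by width with those that define a list, the 10 widest proximal and 5 widest distal peaks of each set, the 10 genes with most distal peaks and the 5 largest width ratios each way. Other genes were chosen after their values were seen, and are the other members of a list given for its counts or are said to be so chosen. A few members that the rule names are not reported here.

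Alternatives were a reciprocal overlap of 50%, a gap of 500 bp, the widest D-EPSC peaks (309 bp or more), a width of at least 128 or 300 bp, windows of 2.5 kb, 500 bp, 200 bp and 50 kb, and distal peaks alone. The steps, run with pandas 2.3.3 and numpy 2.4.6 in Python 3.11.15, pysam 0.24.0 and matplotlib 3.10.9, were tested on simulated lists against bedtools 2.31.1.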

Additional observations from a re-analysis of the deposited data

Results flagged for a closer look

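Outside the chromosomes compared, the ESC list held 2 peaks and the D-EPSC list 2 peaks on the mitochondrial genome, which is not packed into nucleosomes and is readily cut by Tn5. They were set apart because they lie in data that no comparison above used, and no control library stands beside them.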

How the results depend on the processing

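No paired analysis was possible because each state has 1 list with no value per replicate, which also means that leaving out a replicate could not be tried. Of the values under alternatives, 37 moved beyond their counting error or by over 1.5 times and 20 did not. ESC-only peaks numbered 12800 with a reciprocal overlap of 50% and 10342 against the widest D-EPSC peaks, and D-EPSC-only peaks 10692 among the widest and 15407 at 300 bp or wider, each with fewer overlaps or fewer peaks by construction. The promoter share of ESC-only, D-EPSC-only and shared peaks was 8.20%, 18.5% and 48.7% within 2.5 kb, 2.91%, 11.3% and 43.3% within 500 bp, 26.0%, 19.3% and 47.4% under reciprocal overlap, 6.48%, 21.9% and 55.5% for the widest D-EPSC peaks, and 6.03%, 15.5% and 46.9% with all transcript starts, an alternative chosen after seeing the data. ESC-only genes numbered 455 with lists of equal length and 195 at 300 bp or wider. L-EPSC peaks overlapped 29.1% of ESC-only and 36.2% of D-EPSC-only peaks with the reciprocal overlap, and 62.1% and 66.4% at 300 bp or wider, and the cause was not tested. In windows of 200 bp, which hold fewer bases, ESC-only and D-EPSC-only shares were 1.21% and 0.668% for TCF/LEF, 3.30% and 1.86% for ESRRB, 4.53% and 3.57% for KLF, and 2.36% and 4.16% for ZFP281. In distal peaks alone the D-EPSC-only share was 3.82% for ESRRB and 6.84% for ZFP281. Within 50 kb of a start, 6 genes had 5 or more ESC-only peaks and 53 had 10 or more D-EPSC-only peaks. With no score or depth, a D-EPSC-only peak may be a site that fell short of the ESC threshold, and the lists cannot tell these apart.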
